A study of Mus musculus with 2 samples.

Results

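The ATF4 and CHOP core of the integrated stress response was examined in mouse lung cancer cells as a set of 10 genes out of the 23183 listed in each of 2 RNA-seq libraries. The genes are the transcription factors *Atf4*, *Atf5*, *Ddit3* (which encodes CHOP), *Cebpb* and *Cebpg*, the chromatin-associated stress protein gene *Nupr1*, the pseudokinase gene *Trib3*, the glutathione-degrading enzyme gene *Chac1*, and the secreted factor genes *Gdf15* and *Adm2*. They were taken by gene symbol, and the set was chosen by known function with the differences in FPKM between these same 2 libraries already in view. Every difference below is therefore a description of the 2 libraries, and no test was run on any of them. Values are FPKM (fragments per kilobase of transcript and per 1 M fragments), and a gene is called expressed here where its FPKM averaged 1 or more over both libraries. All 10 genes were listed in both libraries, and all 10 were expressed.

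The integrated stress response begins when a kinase senses a shortage of amino acids, unfolded protein in the endoplasmic reticulum (ER), loss of heme or double-stranded RNA, and phosphorylates the translation factor eIF2. Most translation then slows, while the *Atf4* mRNA, whose leader carries short upstream reading frames, is translated more. ATF4 is a basic leucine zipper (bZIP) factor that pairs with C/EBP proteins at C/EBP-ATF response elements (CARE) and switches on genes of amino acid supply, of tRNA charging and of feedback, among them *Ddit3*, *Trib3* and *Chac1*. Since much of the control of ATF4 is translational, mRNA levels do not give its protein level.

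Both libraries came from an immortalized line of lung cancer cells of a mouse that carried *Runx3* flox/FSF, Flp ERT2, *p53* flox/flox, *K-Ras* LSL-G12D/+ and Tomato* alleles. Adenoviral Cre, driven by a CMV promoter, had activated oncogenic *K-Ras* and deleted *p53* and the floxed *Runx3* allele, so both libraries share these changes. In the library labelled KPR- (RUNX3 -/-, 0 h in its title) a *Frt-Stop-Frt* cassette kept the remaining *Runx3* allele off, and in the library labelled KPR_restored (RUNX3 -/+, 16 h in its title) 4-hydroxytamoxifen (4-OHT) had been used to activate Flp and remove the cassette. The sample records list 1 μM 4-OHT for both libraries. Whether the line is a single clone is not given in the sources used here. With 1 library of each kind there is no replicate error, and *Runx3*, 4-OHT and hours in culture cannot be told apart. Nor can more cells with the response and more of its mRNA per cell, since the libraries are bulk RNA.

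The depth, estimated from the steps that whole fragments leave in low FPKM values, came to about 21.9 M fragments in the KPR- library and to 22.5 M in the other. It is the total that the FPKM values are scaled to, which a normalization between libraries would move away from the fragments sequenced. *Runx3* itself was at 0.348 FPKM in KPR- and 0.349 FPKM in KPR_restored, from about 28 and 29 fragments. These values were 0.0074 apart on the log2 scale (-0.79 to 0.81 by counting error at 95%). No difference in *Runx3* was thus seen beyond counting error, and these limits do not reach 1 on the log2 scale. The *Runx3* mRNA value therefore does not bear out the label of the KPR_restored library. A value per gene does not separate transcripts of the floxed allele from those of the other allele, and the reason was not tested. *Trp53*, deleted in both, was at 2.12 and 2.17 FPKM. *Cdkn2a*, the gene that encodes Arf and p16, was at 206 and 244 FPKM, 0.24 apart on the log2 scale (0.17 to 0.31 by counting error at 95%), and a value per gene does not separate its transcripts. Of 9 epithelial and lung markers, the 5 that were expressed were *Epcam*, *Cdh1*, *Krt8*, *Krt18* and *Krt19*, whereas *Nkx2-1* was at or below 0.0444 FPKM and the alveolar and club cell genes *Sftpc*, *Sftpb* and *Scgb1a1* were listed at 0 in both libraries. Of 8 mesenchymal markers, 4 were expressed, with *Vim* at 1777 and 1464 FPKM, *Fn1* at 242 and 239 FPKM, *Cdh2* at 27.1 and 19.8 FPKM and *Col1a1* at 12.2 and 4.21 FPKM, whereas *Col1a2*, *Pdgfra*, *Pdgfrb* and *Acta2* were at or below 0.363 FPKM. Of 8 blood and vessel markers, *Cd68* (3.08 and 6.78 FPKM) and *Kdr* (1.10 and 2.05 FPKM) were expressed and higher in KPR_restored, with the pan-leukocyte gene *Ptprc* at or below 0.00892 FPKM. Summed FPKM in KPR- and KPR_restored was 4881 and 4625 over the epithelial and lung list, 2059 and 1727 over the 8 mesenchymal markers, and 4.24 and 9.01 over the blood and vessel list. The part of these markers in the values below was not tested.

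In KPR- the 10 genes spanned a 77.2-fold range of FPKM. *Atf4* was the highest at 145 FPKM, *Cebpb* and *Nupr1* followed at 48.2 and 46.9 FPKM, *Cebpg*, *Ddit3* and *Atf5* lay at 17.4, 12.3 and 11.9 FPKM, and *Trib3*, *Chac1*, *Adm2* and *Gdf15* were the lowest at 6.75, 4.26, 3.96 and 1.88 FPKM. In KPR_restored the range had narrowed to 19.99-fold, with *Atf4* at 446 FPKM, *Nupr1* at 343 FPKM, *Cebpb* at 132 FPKM, *Trib3* at 98.1 FPKM, *Chac1* at 63.7 FPKM, *Adm2* at 60.4 FPKM, *Atf5* at 53.1 FPKM, *Ddit3* at 52.8 FPKM, *Gdf15* at 28.0 FPKM and *Cebpg* at 22.3 FPKM. All 10 genes were higher in KPR_restored, and *Cebpg* went from place 4 to place 10. Neighbours in the order whose 95% counting intervals overlapped were *Cebpb* and *Nupr1* in KPR-, and in both libraries *Ddit3* with *Atf5* and *Chac1* with *Adm2*. These intervals (exact Poisson limits of estimated fragments) cover counting error only.

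**Figure D1:**
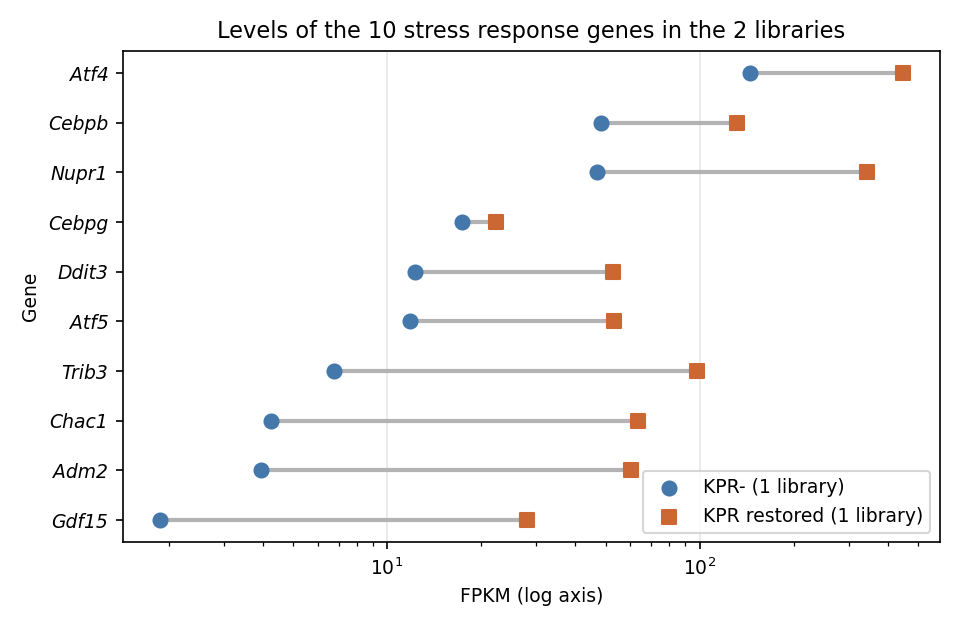
FPKM of the 10 genes (log axis) in the KPR- library (circles) and the KPR_restored library (squares), 1 library each, ordered by the KPR- level. All 10 squares lie to the right of their circles, and the shortest line is that of *Cebpg*, from 17.4 to 22.3 FPKM.

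Summed over the 10 genes, 298 FPKM in KPR- stood against 1300 FPKM in KPR_restored, which is 0.0572% and 0.248% of all FPKM of each library. *Atf4* made up 48.6% of the sum in KPR- and 34.3% in KPR_restored. The differences were taken as log2(FPKM + 0.005) in KPR_restored minus KPR-, and a gene counted as higher or lower from 0.5 on. By this rule 9 of the 10 genes were higher and 0 were lower, and the same 9 were higher by 1 or more. Of the 11231 expressed genes, 12.1% were higher by 0.5 or more, 9.29% were lower by as much and 2.89% were higher by 1 or more. The median difference was 2.52 over the 10 genes and 0.0086 over the 11231 genes. Since the set was chosen with this contrast in view, nothing is read from these shares.

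*Atf4*, the effector of the response, had a difference of 1.62 (3.08-fold), with a 95% counting interval of 1.58 to 1.67 from about 4809 and 15233 fragments. *Atf5*, a close relative of *Atf4* that is also under translational control and is known for the mitochondrial stress response, had a difference of 2.16 (4.47-fold), with an interval of 2.01 to 2.32. *Ddit3* encodes CHOP, a dimer partner of C/EBP proteins that is known for promoting cell death under lasting ER stress, and had a difference of 2.11 (4.31-fold), with an interval of 1.87 to 2.35. The intervals of *Atf5* and *Ddit3* overlapped each other and lay above that of *Atf4*. The level of *Ddit3* relative to *Atf4* was 0.0846 in KPR- and 0.118 in KPR_restored, so CHOP mRNA remained well under *Atf4* mRNA in both libraries.

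The C/EBP members differed from each other. *Cebpb*, a bZIP factor of inflammation and differentiation that dimerizes with both ATF4 and CHOP, had a difference of 1.45 (2.74-fold), with an interval of 1.36 to 1.54. *Cebpg* encodes a C/EBP protein that lacks an activation domain and binds ATF4 as a heterodimer at amino acid response genes. Its difference of 0.36 (1.28-fold), with an interval of 0.27 to 0.45, was the only one of the 10 under the threshold of 0.5. The ratio of *Cebpb* to *Cebpg* was 2.77 in KPR- and 5.91 in KPR_restored, and that of *Atf4* to *Cebpg* was 8.31 and 19.99. *Cebpg* has coding transcripts of 4709 and 914 bases. With the shorter one its fragments would be about 269 and 355 instead of 1716 and 2260, with an interval of 0.13 to 0.59 that reaches the threshold.

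*Trib3* and *Nupr1* act as feedback and stress adaptors. *Trib3* encodes a pseudokinase that binds ATF4 and CHOP and restrains them, and it went from 6.75 to 98.1 FPKM, a difference of 3.86 (14.5-fold) with an interval of 3.68 to 4.05. *Trib3* mRNA was at 0.550 times the level of *Ddit3* in KPR- and at 1.86 times in KPR_restored, so the order of the pair was turned. *Nupr1* encodes a small chromatin-associated protein that is induced by many stresses, and its difference was 2.87 (7.32-fold), with an interval of 2.75 to 2.99. *Nupr1* was the second highest of the 10 genes in KPR_restored.

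The enzyme and the secreted factors, the downstream end of the set, started lowest and differed most together with *Trib3*. *Chac1*, whose product breaks down glutathione, had about 133 fragments in KPR- and 2049 in KPR_restored, a difference of 3.90 (14.9-fold) with an interval of 3.65 to 4.17. *Gdf15*, a TGF-beta family hormone of tissue stress that acts on appetite through a brainstem receptor, had about 55 and 841 fragments, a difference of 3.89 (14.9-fold) with an interval of 3.50 to 4.32. *Adm2*, which encodes the peptide intermedin of the calcitonin and adrenomedullin family, had about 95 and 1482 fragments, a difference of 3.93 (15.2-fold) with an interval of 3.62 to 4.24. The intervals of *Trib3*, *Chac1*, *Gdf15* and *Adm2* overlapped one another, and counting error does not set these 4 genes apart.

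**Figure D2:**
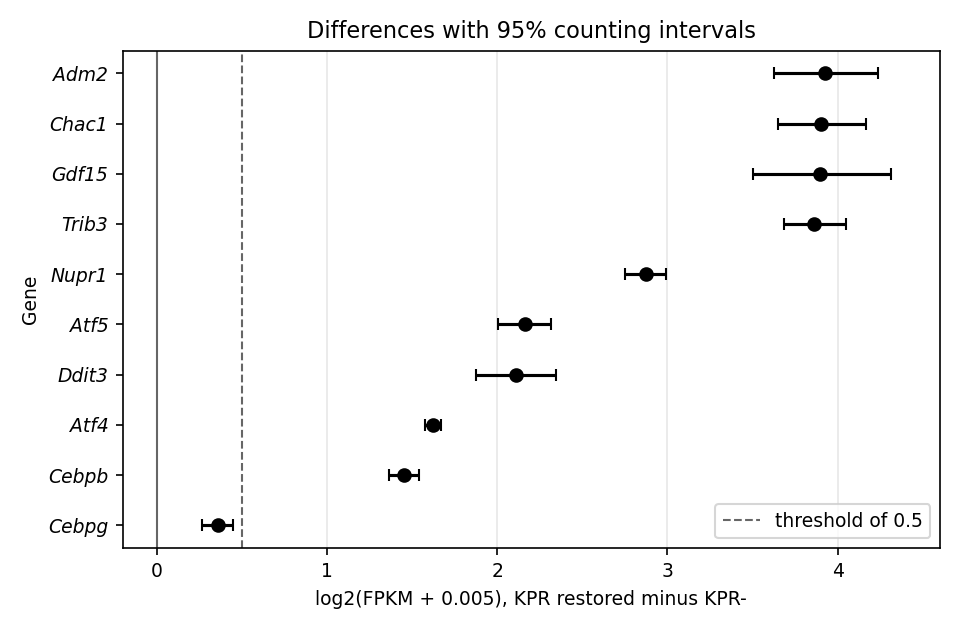
Difference of each of the 10 genes between the libraries in log2(FPKM + 0.005), KPR_restored minus KPR-, with 95% counting intervals as bars and the threshold of 0.5 as a dashed line. All 10 intervals lie above 0, and those of *Trib3*, *Gdf15*, *Chac1* and *Adm2* overlap and span 3.50 to 4.32.

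Among the 11231 expressed genes, *Adm2*, *Chac1*, *Gdf15* and *Trib3* held places 8 to 11 by difference. Of the 7 genes above them, 6 have a longest transcript under 300 bases, where FPKM is unstable. Over the 10792 genes with a transcript of at least 300 bases the 4 genes held places 2 to 5, *Nupr1* place 15, *Atf5* place 38, *Ddit3* place 42, *Atf4* place 87 and *Cebpb* place 125, whereas *Cebpg* held place 2052. Among other genes that averaged 5 FPKM or more, the 5 largest differences of log2(FPKM + 1) were those of small nucleolar RNA genes that were listed at 0 in KPR-, such as *Snora64* and *Snord33*. With transcripts under 300 bases left out, a choice made after the values were seen, they were *Slc7a11*, *Atf3*, *Gpt2*, *Aldh1l2* and *Asns*. Each of these 5 is on a list of ATF4 target genes described below. Those lists were chosen with these data known, so nothing is read from this overlap.

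**Figure D3:**
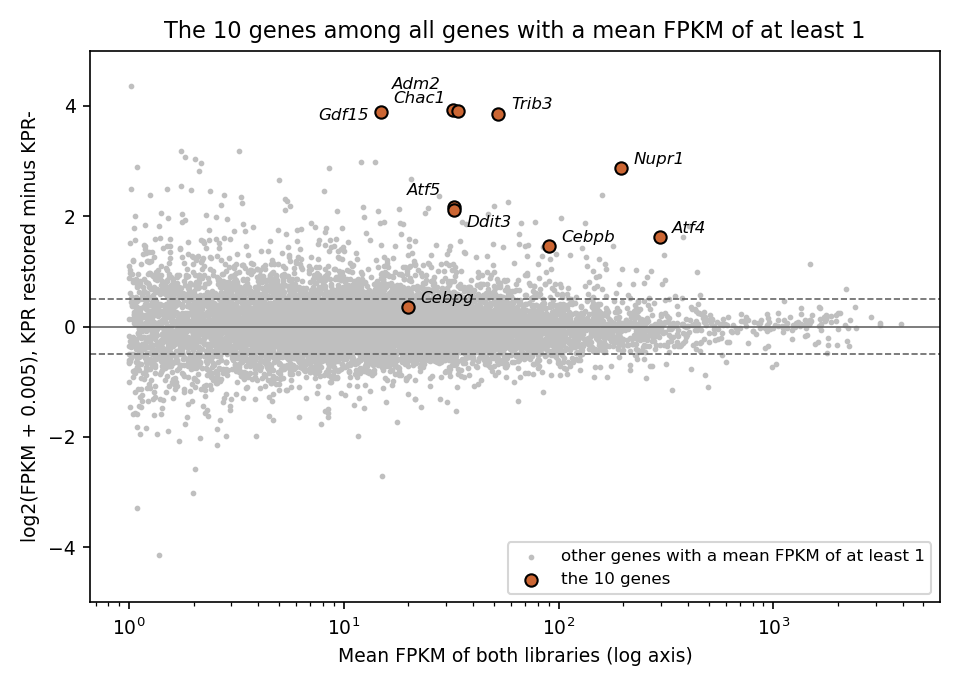
Difference in log2(FPKM + 0.005), KPR_restored minus KPR-, against the mean FPKM of both libraries (log axis) for expressed genes, with the 10 genes in colour and dashed lines at 0.5 and -0.5. A further 19 genes lie beyond the axis limit of 5 in either direction. *Adm2*, *Chac1*, *Gdf15* and *Trib3* stand together near 3.9, and *Cebpg* at 0.36 lies inside the cloud.

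The promoters of the 10 genes were read from RefSeq (GRCm38.p6) as 12 windows of 250 bases before to 50 bases after a transcript start, since *Atf5* and *Gdf15* have a second start. Shown here are 250 bases before the start, 5′ to 3′, for the members with a CARE core match there (*Chac1* and *Nupr1*), for *Adm2*, which differed most without one, for *Ddit3*, and for *Cebpg*, the member under the threshold. For *Trib3* only the site is shown, which lies at bases 15 to 22 after the RefSeq start but upstream of the GENCODE start. The *Nupr1* stretch lies inside the GENCODE gene, before a start within it. Capitals mark the CARE core TGATGNAA, here on the opposite strand.
Chac1, chr2:119350992-119351241, plus strand: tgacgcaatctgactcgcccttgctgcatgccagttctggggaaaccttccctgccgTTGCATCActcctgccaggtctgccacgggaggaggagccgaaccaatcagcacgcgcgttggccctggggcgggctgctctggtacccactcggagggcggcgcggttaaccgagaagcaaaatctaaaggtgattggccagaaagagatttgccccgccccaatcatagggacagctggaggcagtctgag
Nupr1, chr7:126625471-126625720, minus strand: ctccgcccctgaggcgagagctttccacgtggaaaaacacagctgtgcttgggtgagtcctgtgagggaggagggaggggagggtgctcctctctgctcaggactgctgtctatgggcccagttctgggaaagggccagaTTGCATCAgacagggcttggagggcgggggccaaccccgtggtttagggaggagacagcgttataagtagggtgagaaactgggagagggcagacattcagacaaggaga
Trib3 site, chr2:152344028-152344057, minus strand: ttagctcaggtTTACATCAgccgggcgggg
Adm2, chr15:89322470-89322719, plus strand: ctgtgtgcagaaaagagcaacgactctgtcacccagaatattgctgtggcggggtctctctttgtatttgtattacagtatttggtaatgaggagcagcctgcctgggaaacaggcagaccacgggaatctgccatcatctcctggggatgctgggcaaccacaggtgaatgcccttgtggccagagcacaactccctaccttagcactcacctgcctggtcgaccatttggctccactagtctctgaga
Ddit3, chr10:127290543-127290792, plus strand: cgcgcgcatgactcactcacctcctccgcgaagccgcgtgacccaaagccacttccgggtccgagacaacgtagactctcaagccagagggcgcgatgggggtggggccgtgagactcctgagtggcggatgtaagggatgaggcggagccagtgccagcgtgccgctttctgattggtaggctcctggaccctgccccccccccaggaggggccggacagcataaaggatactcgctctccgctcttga
Cebpg, chr7:35056567-35056816, minus strand: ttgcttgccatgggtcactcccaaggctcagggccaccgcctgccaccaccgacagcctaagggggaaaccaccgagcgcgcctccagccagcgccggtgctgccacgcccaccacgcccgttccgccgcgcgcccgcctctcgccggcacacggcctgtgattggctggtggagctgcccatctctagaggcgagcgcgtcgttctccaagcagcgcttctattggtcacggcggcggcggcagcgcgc

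The CARE core was found in *Chac1* at -193 to -186, in *Nupr1* at -110 to -103 and in *Trib3*, so in 3 of the 10 genes. *Chac1* and *Nupr1* carry the same 8 letters, TTGCATCA, and *Trib3* carries TTACATCA. Of all 32851 RefSeq windows 3.97% hold the core, and of the 10973 windows of expressed genes 2.13% do. Searched in the same way on both strands, the cAMP response element TGACGTCA, the C/EBP site TTGCNNAA and the ER stress element ERSE were found in 0 member windows, against 1.79%, 10.8% and 0.119% of all windows and 3.17%, 8.18% and 0.118% of the windows of expressed genes. The AP-1 site TGANTCA was found in *Ddit3* at -242 to -236 and in 7.81% of all windows and 5.15% of those of expressed genes. The RUNX core TGTGGT was found in *Adm2* at -92 to -87 and in 16.8% of all windows and 12.2% of those of expressed genes, these being the letters that RUNX family factors are known to bind. A match is not a bound site, and the windows do not reach farther elements.

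The leaders of the mRNAs differ in the number of upstream ATG triplets, the feature behind translational control in this response. In the transcript used for each gene, *Atf4* has 3 upstream ATG triplets in a leader of 594 bases, *Atf5* has 2 in 373 bases, *Ddit3* has 2 in 186 bases and *Gdf15* has 4 in 483 bases. *Cebpg*, *Nupr1* and *Adm2* have 1 each, and *Trib3*, *Cebpb* and *Chac1* have 0. At least 1 upstream ATG was thus present in 7 of the 10 genes and in 50.7% of 10388 expressed coding genes, and at least 2 in 4 of the 10 genes and in 28.3% of these coding genes. Both the member with the smallest difference, *Cebpg*, and the member with the largest, *Adm2*, have 1.

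The 10 genes lie on 5 chromosomes (GRCm38, GENCODE M21). *Chac1* (chr2:119351229-119354381), *Trib3* (chr2:152337422-152344032) and *Cebpb* (chr2:167688915-167690418) are on chromosome 2, and *Cebpg* (chr7:35046422-35056573), *Atf5* (chr7:44812256-44816658) and *Nupr1* (chr7:126623249-126630861) are on chromosome 7. *Atf4* (chr15:80255184-80257541) and *Adm2* (chr15:89322720-89324731) are on chromosome 15, *Gdf15* (chr8:70629393-70632456) is on chromosome 8 and *Ddit3* (chr10:127290774-127296288) is on chromosome 10. Neighbours were taken only among coding genes whose GENCODE symbol is also listed in the libraries. A nearer gene listed under another symbol could be missed. Of the 24 coding genes found to overlap a member or lie nearest to it on either side, 17 were expressed, with a median difference of 0.071. Of these, 3 were higher by 0.5 or more (*Mars*, *Dll4* and *Pgpep1*) and 0 were lower, against 12.1% and 9.29% of all expressed genes. *Mief1*, the neighbour of *Atf4* at 1812 bases, was at 14.0 FPKM in both libraries, and *Rbck1*, the neighbour of *Trib3* at 4768 bases, was at 37.2 and 38.5 FPKM.

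Some members share exon sequence with a gene on the other strand, and it is not stated whether strand was used in making the FPKM values. *Ddit3* shares 68 exon bases with *Mars*, the gene of a tRNA synthetase, which was at 63.8 FPKM in KPR- and 108 FPKM in KPR_restored. *Atf5* shares 82 exon bases with *Nup62* (52.3 and 70.5 FPKM) and *Cebpb* shares 312 with *Tmem189* (33.1 and 34.7 FPKM). The part of these overlaps in the values was not tested.

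Upstream of *Atf4*, the list of 17 genes of eIF2, its kinases, its phosphatase subunits, eIF2B and the kinase regulators *Impact*, *Gcn1l1* and *Oma1*, all expressed, had a median difference of 0.056, with 3 higher and 0 lower by 0.5 or more. The 3 make 17.6% of the list, near the 12.1% of all expressed genes that were higher, and 9.29% of all were lower. *Ppp1r15a* (GADD34), the inducible phosphatase subunit that ends the response and is itself a target of ATF4 and CHOP, went from 7.85 to 28.9 FPKM, a difference of 1.88. *Eif2s2*, a subunit of eIF2, was at 122 and 196 FPKM, and *Impact*, an inhibitor of the GCN2 kinase, was at 11.3 and 16.7 FPKM. The lowest differences on the list were those of *Eif2s3x*, at -0.40, and of the double-stranded RNA sensor *Eif2ak2* (PKR), at -0.25. The 4 kinase genes stood within 0.5 of no difference, with *Eif2ak3* (PERK) the highest of them at 0.41.

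The genes downstream of ATF4 were higher almost throughout. Each gene counted once, 44 of 49 expressed targets (89.8%) were higher and 0 lower by 0.5 or more, the median was 1.29, and the lists were chosen with these data known. Over all expressed genes, 12.1% were higher and 9.29% lower by as much. Of 23 amino acid supply genes, 22 were expressed, and 19 of these were higher by 0.5 or more and 0 lower, with a median of 1.57. *Slc7a11*, the cystine transporter, went from 3.14 to 24.9 FPKM and *Gpt2*, a mitochondrial alanine transaminase, from 5.61 to 35.7 FPKM, while *Slc38a2*, a neutral amino acid transporter, was at 181 and 182 FPKM and *Mthfd1l* had a difference of 0.15. Of 13 tRNA charging genes, 11 were higher and 0 lower, with a median of 0.94. *Nars* and *Cars*, the asparaginyl and cysteinyl tRNA synthetase genes, had differences of 1.46 and 1.31, against 0.33 for the tRNA exporter gene *Xpot* and 0.27 for *Eprs*. Of 15 stress signalling targets, 14 were expressed and all 14 were higher, with a median of 1.502. The highest there were *Atf3*, from 2.69 to 21.3 FPKM, and *Jdp2*, from 6.69 to 29.4 FPKM, both bZIP repressors, and the lowest was *Herpud1*, a gene of ER protein degradation, at 0.62. *Fgf21*, a stress hormone gene, was listed at 0 in KPR- and at 0.484 FPKM in KPR_restored.

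Of the 7 genes linked to CHOP, 6 had a difference above 0 and 1 below, with 4 higher and 1 lower by 0.5 or more and a median of 0.72. Beside *Ppp1r15a*, *Pmaip1* (Noxa), a BH3-only death gene, went from 4.73 to 12.3 FPKM, while *Tnfrsf10b*, a death receptor gene, was at 31.9 and 32.6 FPKM and *Dnajc3*, an ER co-chaperone gene that inhibits eIF2 kinases, had a difference of -0.67. The ER chaperone and IRE1/ATF6 branch lay mostly below 0, with 9 of 17 genes lower and 2 higher by 0.5 or more and a median of -0.60. *Calr* (calreticulin) was at 675 and 314 FPKM and *Sdf2l1* at 28.4 and 14.5 FPKM, whereas *Dnajb9* was at 9.10 and 15.97 FPKM and *Xbp1* at 23.0 and 37.2 FPKM. Of 7 mitochondrial chaperone and protease genes, 1 was higher (*Lonp1*, 0.74) and 1 was lower (*Hspd1*, -0.51). The 20 reference genes had a median of -0.015, with 0 higher and 1 lower (*Tfrc*, -0.78). Beside the counts of these 4 lists, 12.1% of all expressed genes were higher and 9.29% lower by 0.5 or more.

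**Figure D4:**
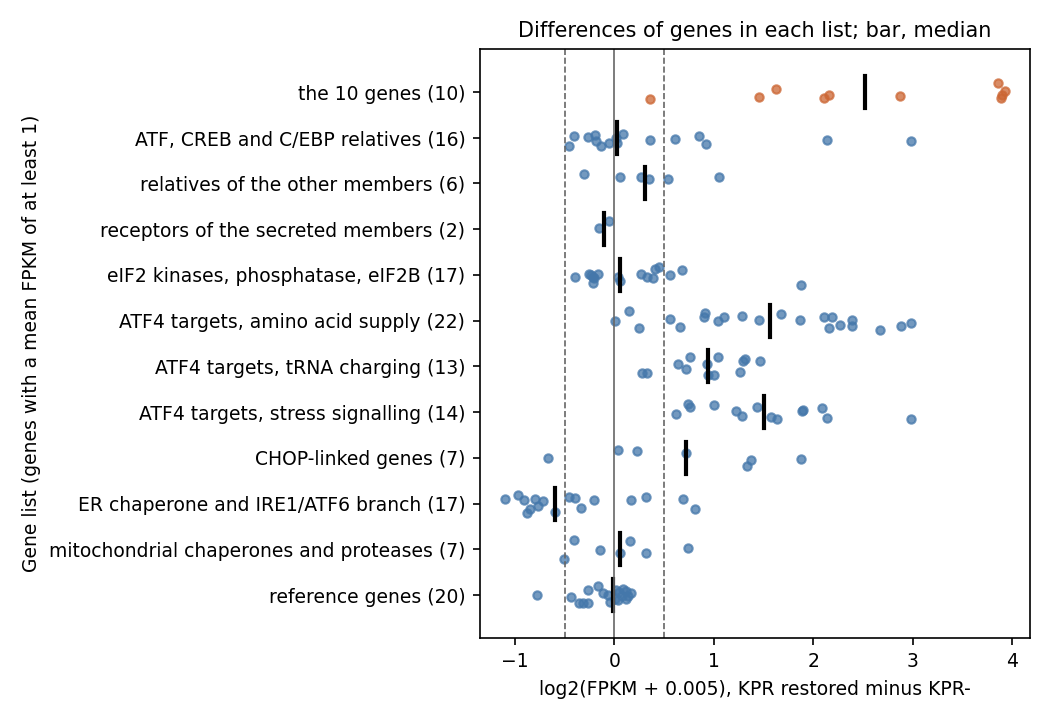
Difference in log2(FPKM + 0.005), KPR_restored minus KPR-, of each expressed gene in the 10 genes and 11 lists (1 point per gene, number of genes in brackets, bar at the median, dashed lines at 0.5 and -0.5). The medians of the 3 ATF4 target lists lie at 0.94 to 1.57, that of the ER chaperone list at -0.60 and that of the reference genes at -0.015.

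Of 21 other ATF, CREB and C/EBP genes, the relatives of the factors, 16 were expressed, with a median difference of 0.021, 5 higher and 0 lower by 0.5 or more. Among all expressed genes 12.1% were higher and 9.29% lower by as much. *Atf3* and *Jdp2* led them, and the lowest were *Creb3l2* (-0.46) and *Atf6b* (-0.41), both membrane-bound factors. *Cebpa*, which lies 62719 bases from *Cebpg*, was at 13.9 and 12.1 FPKM. Of 6 expressed relatives of the other members, *Adm* (adrenomedullin) went from 1.21 to 2.51 FPKM and *Chac2*, the constitutive glutathione-degrading relative of *Chac1*, from 7.18 to 10.4 FPKM, while *Trib2* was at 2.79 and 2.25 FPKM. *Mstn*, which was not expressed, was listed at 0 in both libraries.

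Receptor genes for the secreted members were low. *Gfral*, the receptor of GDF15, was listed at 0 in both libraries, while its co-receptor gene *Ret* was at 4.45 and 4.28 FPKM. For the adrenomedullin receptors, on which the *Adm2* peptide acts, *Calcrl* was at 0.152 and 0.451 FPKM, *Ramp1* at 1.14 and 0.4998 FPKM, *Ramp2* at 0.550 and 1.01 FPKM and *Ramp3* at 3.34 and 2.99 FPKM. Of these 6 genes, 2 were expressed, and both stood within 0.5 of no difference.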

How the data were processed

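Total RNA of 2 samples was poly(A)-selected and made into directional paired-end libraries. The authors trimmed the reads, mapped them to mm10 (TopHat) and estimated FPKM with Cufflinks, which they deposited, 1 value per gene and library. The paper also names a geometric normalization with edgeR, and whether the deposited FPKM carry it is not known here. Versions and annotation are not given in the sources used here. Read counts and proteins were not used here. Differences were log2(FPKM + 0.005), KPR_restored minus KPR-, with a threshold of 0.5. With so small a pseudocount, genes at or near 0 FPKM can show very large differences, as *Fgf21* does at 6.61. Fragments were estimated from the steps of FPKM of 2087 genes with a single transcript length (mean fragment length 208 bases). The depths and the fragment length were those that brought low values nearest to whole fragments. At these settings, low values came within 0.1 of whole fragments in 77.2% and 78.8% of cases. The chance share of 20% holds for settings fixed beforehand, not for the best of a search on the same genes. The longest transcript with a RefSeq counterpart in GENCODE M21 was used. Intervals of differences are exact Clopper-Pearson limits and cover counting error only. The depth estimate, the differences and the intervals were tested on simulated data. Software was scipy 1.17.1, numpy 2.4.6, pandas 2.3.3 and matplotlib 3.10.9 under Python 3.11.15.

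The members and the lists were chosen with earlier results of these data known, and some lists share genes. Genes named beside the members were the 2 highest and 2 lowest differences of log2(FPKM + 1) in each pathway list, whatever their sign, and the 5 largest rises among other genes that averaged 5 FPKM or more. *Eif2ak3*, *Impact*, *Gcn1l1*, *Oma1*, *Cebpa*, *Ret*, *Gfral*, *Aldh1l2*, *Asns*, *Pck2*, the cell type markers, the neighbours and the genes sharing exons were named after their values were seen. The planned identity between member proteins was not analysed here. Alternatives were pseudocounts of 0.1 and 1, 3 other scalings, a threshold of 1, filters on mean FPKM and, for fragments, the shortest coding transcript (500 bases or longer).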

Additional observations from a re-analysis of the deposited data

How the results depend on the processing

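With 1 library of each kind no value could be set against the spread between cultures, and the depth limits the lowest member, *Gdf15*, to about 55 fragments in KPR-. All 10 members kept a difference above 0 in each of the 50 combinations of member and pseudocount or scaling, and 47 of these values stayed within the member's own counting interval. The 3 others came from a pseudocount of 1, with 3.68 for *Trib3*, 3.62 for *Chac1* and 3.33 for *Gdf15*. The count of 9 members higher by 0.5 or more was 9 under each pseudocount, scaling, filter and a threshold of 1. Scaling to an equal FPKM total, to the same upper quartile or to the median gene shifted differences by -0.0064, -0.034 and -0.0086. A threshold of 1 in place of 0.5 takes fewer genes by construction. The count of higher genes was then 15 instead of 19 for amino acid supply, 6 instead of 11 for tRNA charging and 10 instead of 14 for stress signalling. It was 3 instead of 4 for the genes linked to CHOP, 2 instead of 5 for the ATF, CREB and C/EBP relatives and 1 instead of 3 for the eIF2 list. It was 1 instead of 2 for the other relatives and 0 instead of 1 for the mitochondrial list. In the ER chaperone list 1 gene instead of 9 was lower. A filter at a mean FPKM of 5 left 3 of the 5 ATF, CREB and C/EBP relatives and 1 of the 2 other relatives, a pseudocount of 1 also left 1 of the latter, and with no filter 2 receptor genes instead of 0 were higher. With the shortest coding transcript all 10 counting intervals still lay above 0. No paired analysis was possible because each condition has 1 library.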

Other observations

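The CARE core TGATGNAA was also looked up in the promoter windows of other expressed genes, a look-up chosen after the values were seen. Members left out, 216 of 8584 genes with a RefSeq window held it, and 24.5% of the 216 were higher by 0.5 or more and 7.87% lower in KPR_restored, against 11.8% and 8.97% of the 8584. The median difference was 0.11 over the 216 genes and 0.0088 over the 8584. The ATF4 target lists supplied 14 of the 216 genes, out of 37 listed targets with a window (37.8%), and all 14 were higher by 0.5 or more. They include *Asns*, which encodes asparagine synthetase (51.0 and 268 FPKM), *Pck2*, which encodes mitochondrial PEP carboxykinase (18.0 and 82.2 FPKM), *Atf3*, *Jdp2* and *Slc7a11*. Of all 49 expressed targets, with or without the core or a window, 44 (89.8%) were higher by as much. Nothing about the core is therefore read from the 14 targets. Among the 202 other genes with the core, 19.3% were higher by 0.5 or more, with a median of 0.070. These are descriptions of 2 libraries, no test was run, and the lists were chosen with these data known.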
